A study of Mus musculus with 39 samples.

Results

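The transcripts described here are those of 7 intracellular serpins, Serpinb5, Serpinb9, Serpinb9b, Serpinb1a, Serpinb6a, Serpinb6b and Serpinb8, in tumour cells sorted from mouse pancreatic tumours. They were chosen by symbol, 7 of the 39017 rows of the deposited table, with earlier results of these data known, and all 7 passed the filter on low counts in every fit below. The one measured value in the choice was the heart transcript sum that picks the libraries described separately below. None of the 7 genes passed the adjusted threshold between T cell classes in the edgeR fits of all clones; Serpinb5 passed in heart-free libraries by DESeq2, and by edgeR with 1 clone left out. Serpinb5 was higher in T cell high than in T cell low clones in the libraries without heart transcripts, 2.16-fold by the edgeR fit with an adjusted p of 0.149. Serpinb9b followed heart transcripts across libraries, and liver transcripts were higher in the same libraries.

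The study sequenced messenger RNA from YFP-positive cells of C57BL/6 tumours grown under the skin for 3 weeks with no treatment, and asked which genes differ between tumour cells of T cell high and T cell low tumours. The 39 libraries came from 20 tumour cell clones, each given one T cell class or none. There were 4 libraries of 2 intermediate clones, 14 libraries of 6 high clones and 18 libraries of 9 low clones. A further 3 libraries were of clones given no class and were not compared. Clones carry the number of a parent tumour line and a clone number, so yfp_6499c4 (high) and yfp_6499c3 (low) are read as sister clones of one parent line. All groups share the strain, the site and the YFP label, no library comes from normal pancreas, each class rests on a few clones, and the origin of the parent lines is not described in the sources used here. Whether a clone's libraries are from different animals is not stated, so the clone was the replicate.

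Serpins are protease inhibitors that offer a loop as bait, change shape when a protease cuts it, and hold the enzyme in a dead complex. The clade B members lack a classical secretion signal and mostly stay inside the cell, where several protect it from proteases of its own granules or from those delivered by cytotoxic lymphocytes. Serpinb9 is the inhibitor of granzyme B, the killing protease of cytotoxic T cells and natural killer cells, and has been studied as a shield of tumour cells. Serpinb5, known as maspin, keeps the serpin fold but does not act as a protease inhibitor, and is known from epithelia and as a candidate tumour suppressor.

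In GRCm38 coordinates of GENCODE M21, Serpinb5 lies at chr1:106861173-106883348 and Serpinb8 at chr1:107590006-107610484, both on the plus strand. The other 5 lie on chromosome 13, with Serpinb1a at chr13:32842092-32851185 on the minus strand, and Serpinb6b at chr13:32965209-32979067, Serpinb9 at chr13:33003250-33017957 and Serpinb9b at chr13:33027416-33041884 on the plus strand. Serpinb6a lies further along at chr13:33917918-34002794 on the minus strand, where it overlaps Ripk1, Nqo2 and 1110046J04Rik on the other strand. The strand setting of the authors' counting is not given in the sources used here, so reads from those genes may be counted for Serpinb6a. Serpinb9b overlaps Gm36099 in the same way, and Serpinb9 with Serpinb9b and Serpinb6a with Serpinb6b are close paralogues whose shared reads may be split or dropped.

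The promoters of 3 members are shown because their transcripts behaved differently below. Serpinb5 had the smallest p of the 7 between high and low clones in heart-free libraries. The neighbours Serpinb9 and Serpinb9b, though paralogues, had unlike patterns. Each runs from 250 bases before to 50 after the gene's start in RefSeq's GRCm38.p6 annotation, plus strand, 5′ to 3′: chr1:106860925-106861224 for Serpinb5, chr13:33004291-33004590 for Serpinb9 and chr13:33027164-33027463 for Serpinb9b. The RefSeq start of Serpinb9 lies inside the gene as GENCODE M21 gives it. Capitals mark matches, on either strand, to 5 motifs: AP-1 (TGANTCA), IRF (GAAANNGAA), STAT (TTCNNNGAA), GC box (GGGCGG) and TATA box (TATAAA).
Serpinb5: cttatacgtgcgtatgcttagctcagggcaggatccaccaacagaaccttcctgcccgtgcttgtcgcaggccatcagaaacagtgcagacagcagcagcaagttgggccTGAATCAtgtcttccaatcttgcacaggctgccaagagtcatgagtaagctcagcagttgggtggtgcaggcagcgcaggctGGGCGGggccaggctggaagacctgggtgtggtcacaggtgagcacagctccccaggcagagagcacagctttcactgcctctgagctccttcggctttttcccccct
Serpinb9: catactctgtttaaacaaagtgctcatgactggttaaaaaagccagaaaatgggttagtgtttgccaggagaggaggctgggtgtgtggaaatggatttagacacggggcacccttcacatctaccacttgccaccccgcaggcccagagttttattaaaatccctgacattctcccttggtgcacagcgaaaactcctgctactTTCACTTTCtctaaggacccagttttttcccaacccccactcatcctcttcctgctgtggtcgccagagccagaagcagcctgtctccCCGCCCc
Serpinb9b: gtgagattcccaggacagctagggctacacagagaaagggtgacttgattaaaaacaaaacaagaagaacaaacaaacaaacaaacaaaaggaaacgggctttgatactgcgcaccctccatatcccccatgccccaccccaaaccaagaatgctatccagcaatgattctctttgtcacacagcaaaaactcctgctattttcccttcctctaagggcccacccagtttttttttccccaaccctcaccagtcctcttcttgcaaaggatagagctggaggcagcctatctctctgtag
The Serpinb5 window held an AP-1 match, starting at position -140 from the start site, and a GC box at -58. The Serpinb9 window held an IRF match at -45 and a GC box past the start site, and the Serpinb9b window held none of the 5. Among all 32851 RefSeq promoters of 300 bases, 7.81% held an AP-1 match, 8.56% an IRF match, 8.3% a STAT match, 35.7% a GC box and 13.6% a TATA box, and no match in these windows overlapped another. In a pairwise alignment, 186 of 276 aligned bases were the same between the Serpinb9 and Serpinb9b promoters, or 67.4%. Between the other pairs of the 6 members with a RefSeq entry, all but Serpinb1a, the share was 54.3% to 65.6%. These matches are letters in a window, not measured binding sites.

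Depth and the make-up of the libraries bear on every level below. Library totals were 7638130 to 103794674 counts (median 34565903), and levels are given as CPM, which are counts scaled to the same library total. In 19 libraries the summed level of the cardiac genes Myh6, Myh7, Mb and Myl2 came to 152 to 4893 CPM, and in the other 20 to at most 0.235 CPM, with none near the dividing value of 10 CPM. The 19 are called heart-bearing and the 20 heart-free. Of the 19 libraries with tumour number 1 in their title, 18 were heart-bearing, and 1 heart-bearing library had another number, so the kind of library and the tumour number cannot be told apart. The epithelial markers Krt8, Krt18 and Krt19 stood at 1207 to 3637 CPM, 848 to 2886 CPM and 635 to 2926 CPM in the heart-free libraries. Cdh1 stood at 393 to 1469 CPM there. Epcam and Cldn7 varied far more, from 12.7 to 1471 CPM (median 74.7) and from 1.99 to 305 CPM (median 25.3).

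The members differed widely in level. Per kilobase of exon, median levels in the heart-free libraries ran from 58.0 CPM per kb for Serpinb6a through 38.6 for Serpinb6b, 34.5 for Serpinb1a, 19.2 for Serpinb9 and 6.95 for Serpinb5 to 0.495 for Serpinb9b and 0.390 for Serpinb8. The ranges of neighbours in this order overlapped, except those of Serpinb5 and Serpinb9b. Serpinb6a, whose human counterpart inhibits cathepsin G, was the highest of the 7, and Serpinb8 and Serpinb9b were scarce. The plot of all 39 libraries shows each member by class and kind.

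**Figure D1:**
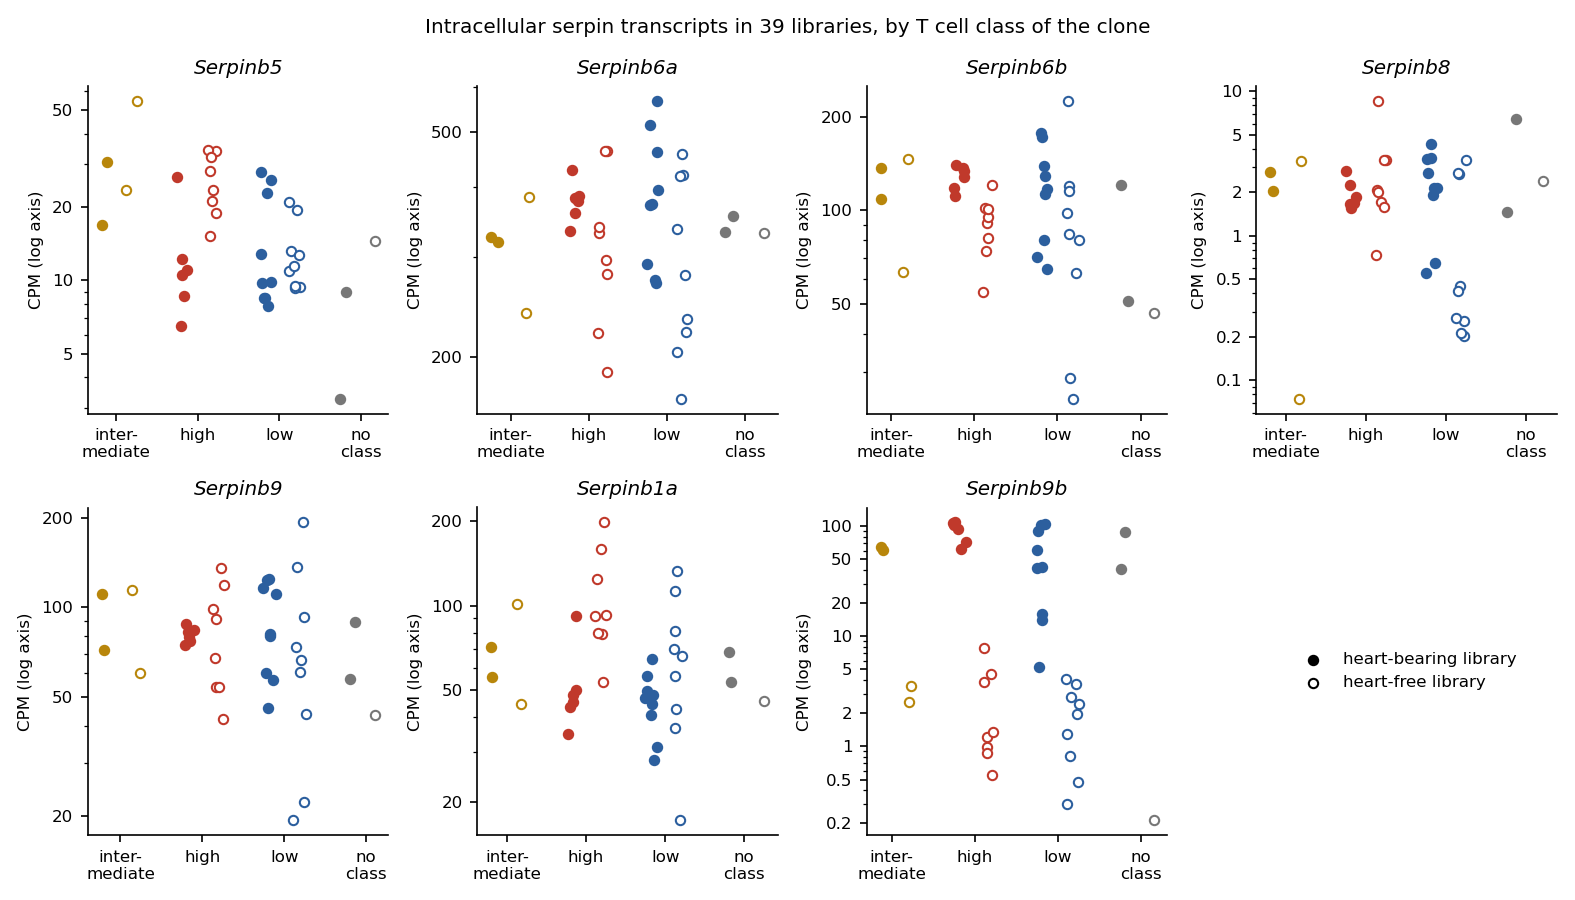
CPM of the 7 serpins in each library (log axes), by T cell class of the clone, with filled points for heart-bearing and open points for heart-free libraries. Serpinb9b separates the kinds within the high and low classes, and the open Serpinb5 points of high clones run up to 34.1 CPM against 20.9 CPM in low clones.

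Serpinb5 was the member with the clearest difference between classes. In heart-free libraries, summed per clone, its lowest, median and highest levels were 19.4, 30.0 and 34.1 CPM in the 6 high clones, against 9.27, 11.8 and 20.9 CPM in the 8 low clones. The groups overlapped, but 5 of 6 high clones lay above every low clone, which held for 172 of 15635 genes tested, or 1.10%. The exception was yfp_2838c3 at 19.4 CPM, under the low clone yfp_6419c5 at 20.9 CPM. The 2 intermediate clones had 54.4 CPM (yfp_7160c5, the highest library of the series) and 23.4 CPM (yfp_6422c5). The mean was 28.1 ± 6.51 CPM in high clones and 13.1 ± 4.56 CPM in low clones (SD, n = 6 and 8).

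In the edgeR quasi-likelihood fit of heart-free libraries, Serpinb5 was higher in high clones by 1.11 ± 0.22 on the log2 scale (SE; 2.16-fold), with p = 1.28e-04. It was 8th of 15635 genes by p, and its Benjamini-Hochberg adjusted p was 0.149. No gene passed 0.05 in that fit (0% called), the smallest adjusted p was 0.0973, and 13.4% of genes had an unadjusted p under 0.05. The fit of DESeq2 gave Serpinb5 a log2 change of 1.10 with an adjusted p of 0.000722 and called 299 genes. Without clone yfp_2838c3 the edgeR value was 1.20 and the adjusted p 0.0398, with 37 genes called; without each of the other clones in turn the adjusted p was 0.114 to 0.348.

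In heart-bearing libraries the classes did not separate for Serpinb5. Its lowest, median and highest levels were 6.48, 10.8 and 26.6 CPM in high clones, against 7.87, 9.82 and 25.8 CPM in low clones. The log2 change in those libraries alone was -0.20 ± 0.36, with an adjusted p of 0.786. Over all libraries together it was 0.58 ± 0.23 with an adjusted p of 0.368, where again no gene of 18551 was called (0%) and 11.7% had an unadjusted p under 0.05. The plot of Serpinb5 by clone sets the kinds side by side.

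**Figure D2:**
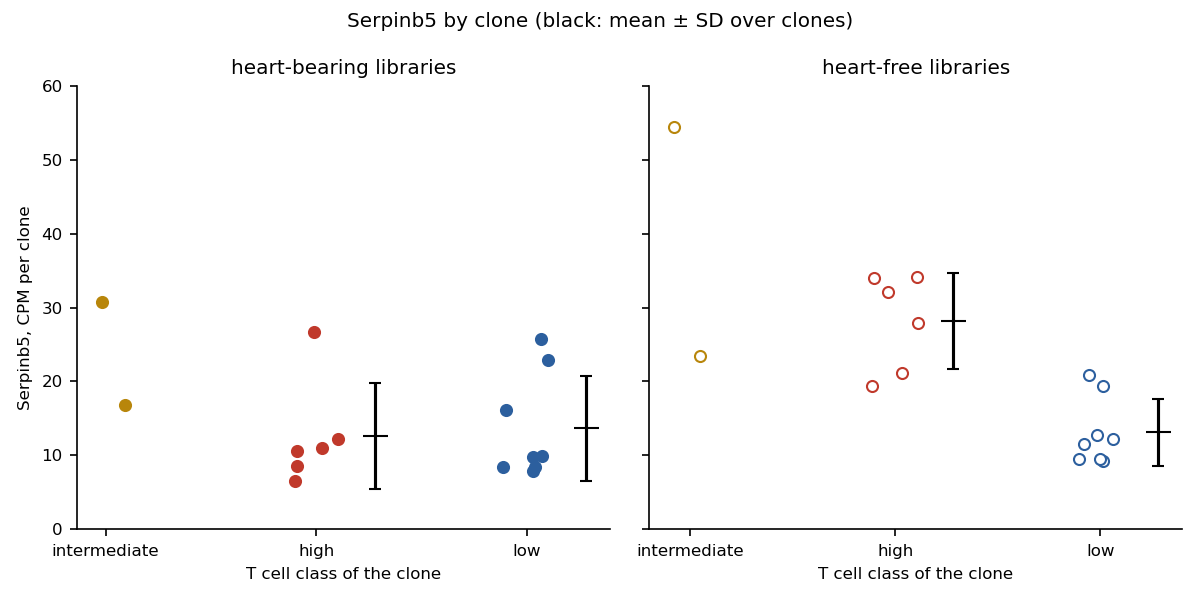
Serpinb5 in CPM per clone by T cell class, in heart-bearing libraries at the left and heart-free libraries at the right, with the mean ± SD where a class had more than 2 clones. High clones average 28.1 CPM and low clones 13.1 CPM in heart-free libraries, and both classes span similar ranges in heart-bearing libraries.

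The 3 pairs of sister clones described first had 1 library per clone and kind, and the last pair is described in heart-bearing libraries alone. In heart-free libraries Serpinb5 was 33.99 CPM in the high clone yfp_6499c4 and 19.4 CPM in its low sister yfp_6499c3, and 21.1 CPM in the high clone yfp_6556c4 and 9.49 CPM in its low sister yfp_6556c3. In their heart-bearing libraries the order was the other way, with 12.2 CPM in yfp_6499c4 and 25.8 CPM in yfp_6499c3, and 10.6 CPM in yfp_6556c4 and 22.9 CPM in yfp_6556c3. So the high sister was above the low one in both lines without heart transcripts and below it in both lines with them. The heart-bearing libraries of yfp_6499c3 and yfp_6556c3 had the 2 smallest heart sums, 152 and 568.3 CPM. The intermediate clone yfp_7160c5 had 54.4 CPM and its high sister yfp_7160c2 had 32.1 CPM in heart-free libraries, while the intermediate clone yfp_6422c5 had 16.8 CPM and its low sister yfp_6422c1 had 9.89 CPM in heart-bearing libraries.

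Against low clones over all libraries, Serpinb5 in intermediate clones was higher by 1.22 ± 0.33 on the log2 scale, with p = 0.00163 and an edgeR adjusted p of 0.369. One gene of 20028 passed in that fit, or 0.00499%, the class I-like gene H2-M2, named because the count is so small. Against high clones the Serpinb5 change was 0.66 ± 0.36 and did not pass, where none of 20028 genes passed (0%). The other 6 members had log2 changes from -0.05 to 0.19 against low clones and from -0.64 to 0.21 against high clones, and none passed. The comparisons of intermediate clones share their low and high clones with the comparison of high and low clones.

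Most tested markers of other cells also had positive fitted changes in high clones of the heart-free libraries, with none called, and their part in the Serpinb5 difference was not tested. Of 6 pan-leukocyte markers, 5 had a positive log2 change (median 1.68), as had 6 of 6 tested macrophage markers (1.64), 4 of 4 neutrophil (1.68), 5 of 5 endothelial (1.23) and 5 of 5 fibroblast markers (1.16). No T and NK cell marker passed the filter. The positive changes were not confined to markers of other cells, as 6 of 6 epithelial markers had them too (median 0.35, none called). In a bulk sample fewer cells of a type and less RNA per cell cannot be told apart.

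The summed levels of these lists overlapped between classes. The pan-leukocyte sum was 26.1 to 358 CPM in high clones and 24.99 to 228 CPM in low clones, and the macrophage sum 76.3 to 2503 CPM in high and 52.1 to 1397 CPM in low clones. The neutrophil sum was 4.78 to 65.6 CPM in high and 1.47 to 15.7 CPM in low clones, and the T and NK cell sum 0.192 to 3.87 CPM in high and 0.0852 to 0.788 CPM in low clones. The endothelial sum was 7.16 to 166 CPM in high and 3.89 to 25.7 CPM in low clones, and the fibroblast sum 118 to 12629 CPM in high and 147 to 2728 CPM in low clones. For these last lists the median clone was lower in the high class, at 8.83 CPM in high and 15.5 CPM in low clones for endothelial and 354 CPM in high and 610.4 CPM in low clones for fibroblast markers, and the highest sum of each was that of the high clone yfp_6555c3.

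Squamous cells are a known source of Serpinb5. In heart-free libraries the basal and squamous list summed to 1.85 to 54.6 CPM in high clones and 1.501 to 51.7 CPM in low clones. Its highest member was Krt14, at up to 53.7 CPM, while Dsg3 was at most 2.78 CPM, Krt15 at most 2.61 CPM, Krt17 at most 2.27 CPM, Trp63 at most 0.718 CPM, Krt5 at most 0.252 CPM and Krt6a at most 0.0999 CPM. The skin keratinocyte list summed to 8.37 to 42.2 CPM in high clones and 8.45 to 22.2 CPM in low clones. Its members Krt10 and Lor passed the filter, at 4.43 to 11.8 and 1.42 to 30.4 CPM. Krt1 and Flg were at most 0.0946 and 0.0284 CPM. In high clones 2 of 2 tested skin keratinocyte markers had positive log2 changes (median 0.74). So had 1 of 2 tested basal and squamous markers (0.20), and none was called. The part of these markers in the Serpinb5 difference was not tested.

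The granzyme B inhibitor Serpinb9 did not separate the classes. In heart-free libraries its lowest, median and highest levels were 54.1, 79.3 and 136 CPM in high clones, against 20.8, 70.0 and 193 CPM in low clones. The high clones thus lay within the range of the low clones, whose extremes were yfp_2699c4 and yfp_6556c3. The log2 change was 0.04 ± 0.40 with an edgeR adjusted p of 0.973 in heart-free libraries, and -0.12 ± 0.28 with an adjusted p of 0.860 over all libraries. With an SE of 0.40 this does not show that the classes are alike. The 2 intermediate clones had 115 CPM (yfp_6422c5) and 60.3 CPM (yfp_7160c5).

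Between sister clones Serpinb9 differed in opposite directions. The high clone yfp_6499c4 had 83.8 CPM in its heart-bearing and 119 CPM in its heart-free library, against 57.1 and 60.6 CPM in its low sister yfp_6499c3. The high clone yfp_6556c4 had 76.8 CPM in its heart-bearing and 67.4 CPM in its heart-free library, against 125 and 193 CPM in its low sister yfp_6556c3. Libraries of sister clones did not overlap in either line, and how many of all genes share this was not counted. The difference between the lines was 1.89 ± 0.34 on the log2 scale, with p = 0.00128 and an edgeR adjusted p of 0.665. This fit of 8 libraries was added after the data were seen. It called none of 17774 genes (0%) and gave 6.25% of them an unadjusted p under 0.05.

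Transcripts of granzymes A and B and of perforin were nearly absent from the heart-free libraries, which are of YFP-sorted cells. Gzmb, which encodes granzyme B, was at most 1.85 CPM, Prf1, which encodes the pore protein perforin, at most 0.186 CPM, and Gzma at most 0.145 CPM. The T cell marker Cd3e was at most 0.773 CPM there. Serpinb9 itself was at least 19.3 CPM in each of them, so its transcript was present where these lymphocyte genes were near 0.

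Serpinb9b, a neighbour of Serpinb9 whose protein is a reported inhibitor of mouse granzyme M, had another pattern. It was 5.21, 64.2 and 108 CPM (lowest, median and highest) in the 19 heart-bearing libraries, against 0.214, 1.66 and 7.80 CPM in the 20 heart-free libraries. The ranges overlapped only through 1 heart-bearing library, that of yfp_6499c3 with the smallest heart sum. Within the 15 clones that had both kinds, Serpinb9b was higher in the heart-bearing libraries of 15 of 15. The log2 difference was 4.82 ± 0.46 with an edgeR adjusted p of 1.79e-08, in a fit with the clone as a block.

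Among heart-bearing libraries Serpinb9b kept a nearly fixed ratio to the heart genes. It stood at 19.1 to 34.3 CPM per 1000 CPM of the heart sum, with a median of 22.3, and the highest ratio belonged to the library with the smallest heart sum, the next being 24.9. Pearson's r between the levels was 0.99 and Spearman's rho 0.96 over these 19 libraries, which share clones and processing, and the values are given as a description. The other members had r from -0.45 to 0.53 with the heart sum. Across all 39 libraries the genes with the most similar log2 profile to Serpinb9b, chosen after its values were seen, were AI182371, Sult1a1, Apon, Ldb3 and Tcap, with r of 0.96, 0.96, 0.95, 0.95 and 0.95. Ldb3 and Tcap encode proteins of the striated muscle Z-disc, and Sult1a1 a sulfotransferase of the liver. Liver genes rose in the same libraries, with 6 of 6 liver markers higher in heart-bearing ones. Among these, the liver sum was lowest in yfp_6499c3 (481 CPM) and highest in yfp_6555c3 (15887 CPM). The same libraries had the lowest and highest Serpinb9b of that kind. The ratio and r of Serpinb9b were worked out with the heart sum alone and not with the liver sum, so they do not single out heart. Whether Serpinb9b followed heart or liver transcripts was not tested.

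**Figure D3:**
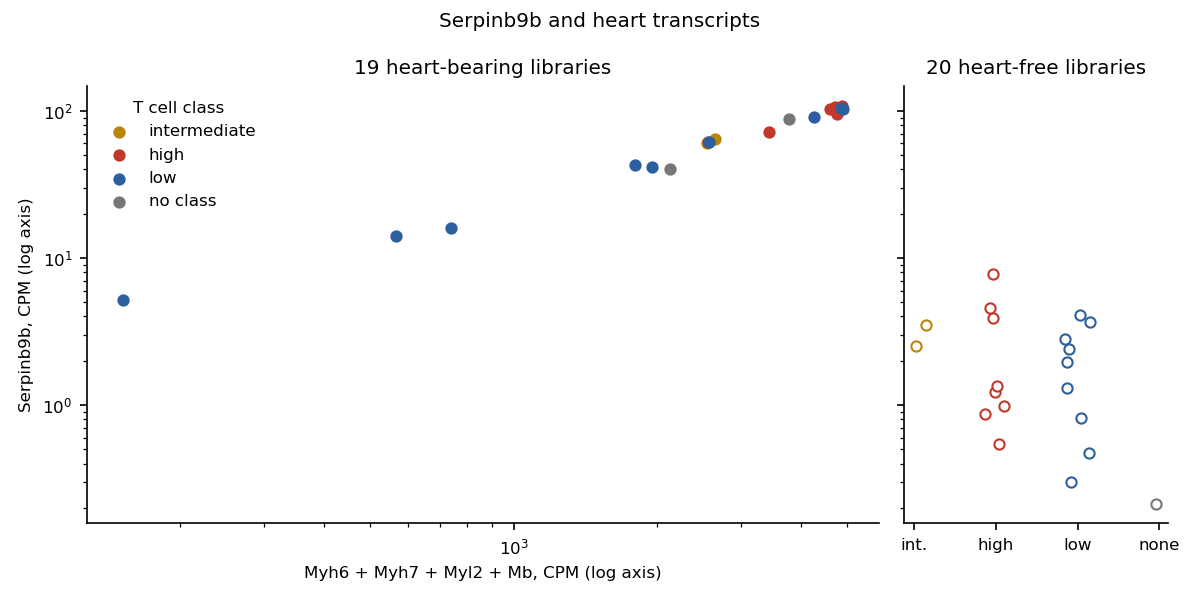
Serpinb9b in CPM against the summed CPM of Myh6, Myh7, Myl2 and Mb in the 19 heart-bearing libraries at the left (log axes), and Serpinb9b in the 20 heart-free libraries at the right by T cell class (int., intermediate; none, no class). Points of all classes lie close to one line from 5.21 to 108 CPM at the left, while heart-free libraries stay at or under 7.80 CPM.

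Class differences of Serpinb9b were within the spread of clones. In heart-free libraries it was 3.19 ± 2.78 CPM in high clones and 2.16 ± 1.37 CPM in low clones (SD, n = 6 and 8), with a log2 change of 0.54 ± 0.63 and an edgeR adjusted p of 0.729. Over all libraries the log2 change was 0.84 ± 0.51 with an adjusted p of 0.490, while the heart genes themselves had a median log2 change of 0.85 in that comparison. The lowest Serpinb9b level in a library of a high clone with heart transcripts was 61.5 CPM, against 5.21 CPM in a low one.

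Serpinb1a, whose protein inhibits the neutrophil proteases elastase, proteinase 3 and cathepsin G, had a higher mean in high clones that did not pass the test. In heart-free libraries its lowest, median and highest levels were 72.8, 109 and 198 CPM in high clones, against 27.3, 68.1 and 132 CPM in low clones. The groups overlapped over much of their range, and 2 of 6 high clones lay above every low clone. The log2 change was 0.75 ± 0.32 with an edgeR adjusted p of 0.344 in heart-free libraries and 0.52 ± 0.24 with an adjusted p of 0.415 over all libraries. Its target Elane, neutrophil elastase, was at most 0.0672 CPM in heart-free libraries, Ctsg, cathepsin G, at most 0.0871 CPM, and Prtn3, proteinase 3, at most 1.28 CPM with a median of 0.1004 CPM.

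Serpinb6a and Serpinb6b did not pass the test between classes. Serpinb6a was 188, 306 and 405 CPM (lowest, median and highest) in high clones, against 169, 257 and 458 CPM in low clones, in heart-free libraries. Serpinb6b was 54.7, 97.0 and 102 CPM in high clones, against 26.9, 90.8 and 225 CPM in low clones. High clones lay within the range of low clones for both genes. The log2 changes were -0.00 ± 0.26 for Serpinb6a and -0.22 ± 0.34 for Serpinb6b, with edgeR adjusted p of 0.997 and 0.805, and with these SE the fits do not show that the classes are alike.

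Serpinb8, whose human counterpart inhibits furin, was scarce and split the low clones. In heart-free libraries it was 1.60, 2.68 and 4.01 CPM (lowest, median and highest) in high clones, against 0.212, 0.373 and 3.37 CPM in low clones. Of the 8 low clones, yfp_6499c3, yfp_6694c2 and yfp_6556c3 had 3.37, 2.73 and 2.68 CPM and the other 5 at most 0.414 CPM. The 2 intermediate clones were as far apart, with 3.31 CPM in yfp_7160c5 and 0.0749 CPM, 3 counts, in yfp_6422c5. The log2 change between high and low clones was 1.07 ± 0.68 with an edgeR adjusted p of 0.488. The plot of fitted changes sets all members side by side.

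**Figure D4:**
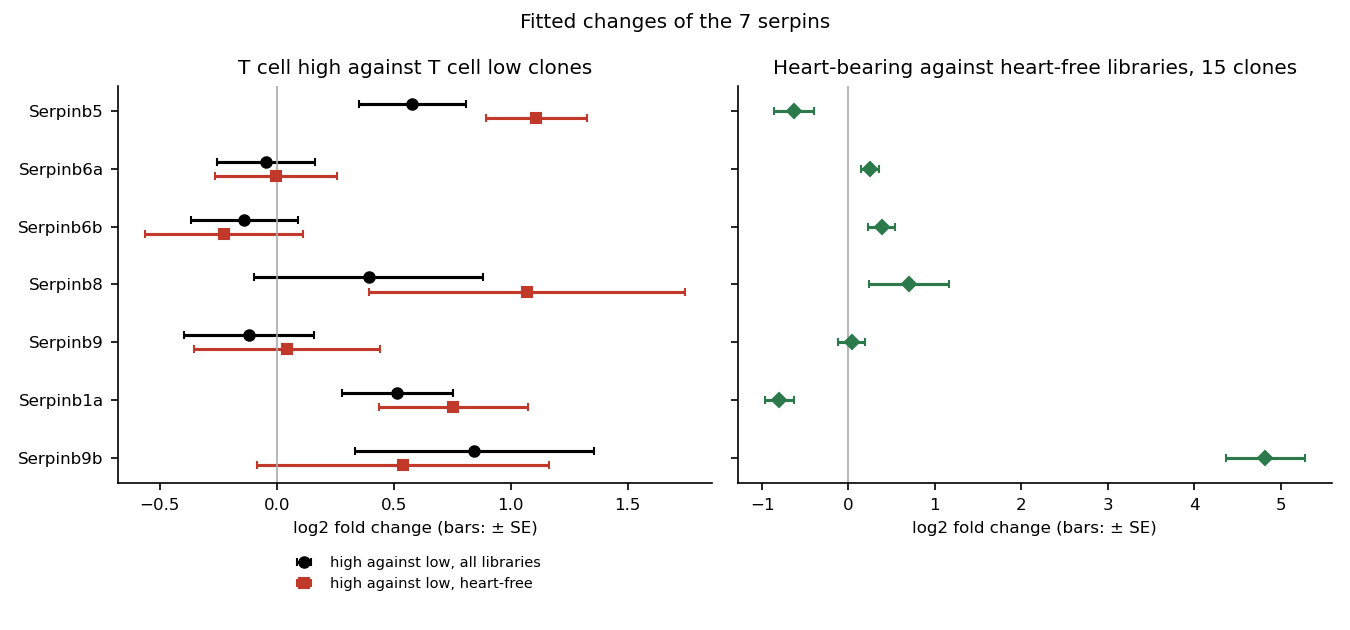
Fitted log2 fold changes with SE for the 7 serpins, at the left for T cell high against T cell low clones over all libraries (black) and in heart-free libraries (red), and at the right for heart-bearing against heart-free libraries of 15 clones. Serpinb5 in heart-free libraries (1.11) stands farthest from 0 in units of its SE at the left, and Serpinb9b (4.82) at the right.

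Between kinds of library, the members moved in both directions. In the fit of 34 libraries from 15 clones, 11556 of 19533 genes passed (59.2%), 31.8% of all genes higher and 27.3% lower in heart-bearing libraries. Of the 7 members, 3 were higher and 2 lower, which is near that background. Serpinb6a was higher in heart-bearing libraries by 0.25 ± 0.10 and Serpinb6b by 0.38 ± 0.15 on the log2 scale, with edgeR adjusted p of 0.0349 and 0.0360. Serpinb1a fell by 0.80 on the log2 scale (SE 0.17, adjusted p = 0.00041, lower in 13 of 15 clones) and Serpinb5 fell by 0.63 (SE 0.23, adjusted p = 0.0238, lower in 12 of 15). The calls of Serpinb6a and Serpinb6b were lost without the filter on low counts (adjusted p = 0.0634 and 0.0595), and those of both genes and of Serpinb5 without the clone as a block (0.201, 0.209 and 0.0813). Serpinb9 had a log2 difference of 0.04 ± 0.16 and Serpinb8 of 0.70 ± 0.46, and neither passed. All 7 tested T and NK cell markers and 6 of 6 tested neutrophil markers were higher in heart-bearing libraries. So were 6 of 6 pan-leukocyte, 5 of 5 endothelial, 5 of 5 fibroblast, 5 of 6 tested macrophage and 6 of 6 liver markers. In the other direction, 3 of 6 epithelial and 2 of 2 tested skin keratinocyte markers were lower. Of 6 tested basal and squamous markers, 2 were higher and 1 lower. The part of these markers in the members' differences was not tested.

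Heart-bearing libraries with much heart transcript also resembled each other across clones. In the 7 libraries, from 7 clones of both classes, with a heart sum over 4000 CPM, the coefficient of variation of the members was 2.98% for Serpinb6a to 17.3% for Serpinb5. In the 20 heart-free libraries it was 30.5% for Serpinb6a to 99.7% for Serpinb8. The 7 libraries were picked for a like heart sum, 4262 to 4893 CPM, and the other heart-bearing libraries are left out. That choice by itself keeps a gene tied to the heart sum, such as Serpinb9b, within a narrow range. Serpinb9, for example, ran from 76.8 to 116 CPM in those 7 libraries and from 19.3 to 193 CPM in heart-free libraries.

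Serpinb6a followed its chromosome. Over the 17 clones with heart-free libraries, 36 of the 50 genes most like it in log2 level lay on chromosome 13 (72%), where 3.50% of the 10592 compared genes lie. This share is a description of genes chosen for their likeness. Its r with the median deviation of chromosome 13 genes was 0.86 and rho 0.84, beside a median r of 0.71 over the 370 chromosome 13 genes compared. That median ran from -0.36 in yfp_6419c5 to 0.45 in yfp_6556c3 on the log2 scale. The cause was not tested.

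**Figure D5:**
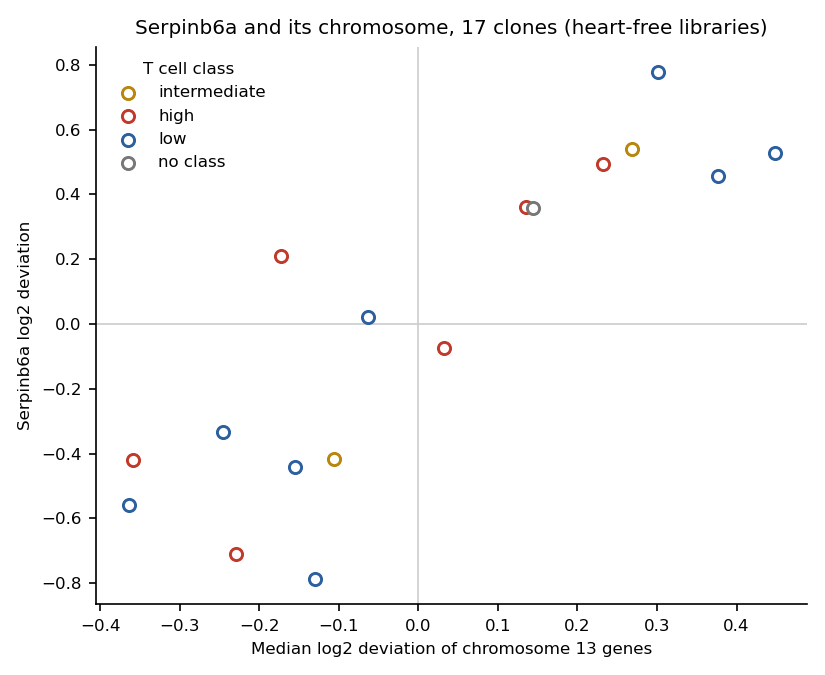
Serpinb6a against the median of 370 chromosome 13 genes in 17 clones, heart-free libraries, both as log2 deviations from the mean over clones. Clones of each class are spread along the line (r = 0.86).

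The neighbours of Serpinb6a on chromosome 13 did not follow its chromosome in this way, and Serpinb1a ran against it. The r with the chromosome median was 0.04 for Serpinb9, -0.19 for Serpinb6b and -0.64 for Serpinb1a, and 4, 0 and 1 of their 50 most similar genes lay on chromosome 13. Serpinb5 had 1 of 50 on its own chromosome 1, where 5.94% of the compared genes lie. Among the members, Serpinb6b and Serpinb9 had the highest r with each other (0.79, rho 0.73, n = 17 clones), and the other pairs had r from -0.46 to 0.48.

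For each member with a mean of at least 5 CPM, the 3 genes most like it over these 17 clones were as follows. Serpinb8 and Serpinb9b fell under that level and are left out. For Serpinb5 they were Rnf103 (r = 0.86), a ubiquitin ligase of the endoplasmic reticulum, Tec (0.84), a kinase best known in blood cells, and Noxa1 (0.84), an NADPH oxidase activator. For Serpinb9 they were Glipr1 (0.80), Nfkbie (0.76), which encodes an inhibitor of NF-κB, and Vmac (0.76). For Serpinb1a they were Stard5 (0.92), Fuca1 (0.88) and Dcxr (0.87), for Serpinb6b Parva (0.89), Stap2 (0.88) and BC029722 (0.88), and for Serpinb6a Ranbp9 (0.93), the overlapping gene Nqo2 (0.91) and Hnrnpk (0.90). Each was the highest of 10592 genes over 17 points, and r is given as a description.

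Other genes of the serpin system were counted in the same fits. Between high and low clones none of the 4 tested of 20 other clade B serpins, the 28 tested of 30 secreted and endoplasmic reticulum serpins, the 14 tested of 16 target proteases, or the 7 reported regulators was called, over all libraries. In heart-free libraries, with 1, 15, 10 and 6 of them tested, none was called either. Of the regulators, Rela, Nfkb1 and Trp53 led with 142, 145 and 146 CPM (medians of heart-free libraries), and of the target proteases Ctsb, Ctsl and Plat, which encode cathepsins B and L and tissue plasminogen activator, led with 730, 542 and 565 CPM.

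Between kinds, where 31.8% of all genes tested were higher and 27.3% lower in heart-bearing libraries, 3 of 7 tested other clade B serpins were higher and none lower in heart-bearing libraries, among them Serpinb2 at 2.77 ± 0.51 on the log2 scale. Serpinb12 was 0.0751 to 4.1995 CPM in heart-bearing and at most 6.17 CPM in heart-free libraries, and Serpinb7 at most 0.933 CPM in heart-bearing and 13.1 CPM in heart-free libraries. Of the secreted serpins 25 of 28 were higher and 1 lower, of the target proteases 8 of 16 were higher and 3 lower, and of the regulators 1 of 7 was higher and 5 lower. The clade B and target protease counts are not far from the shares over all genes and are not a result about those lists. Serpina3k, a liver-secreted serpin, stood at 23.5 to 780 CPM in heart-bearing libraries and had 0 counts in all 20 heart-free libraries. Serpinh1, the collagen chaperone, was 54.0 to 569 CPM in heart-bearing and 32.2 to 770 CPM in heart-free libraries.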

How the data were processed

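RNA of sorted tumour cells was extracted with a column kit and sequenced on an Illumina NextSeq 550, per the labels' protocols. The deposited values are raw counts per gene. STAR, featureCounts and mm10 are named, with no version, in the submitters' processing notes; neither annotation release nor strand setting is stated there. The members, the gene lists and the division by heart transcripts were chosen with earlier results of these data known.

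Counts were summed per clone. After filterByExpr and TMM scaling, edgeR 4.0.16 in R 4.3.3 fitted each gene by quasi-likelihood, with Benjamini-Hochberg adjustment over all genes of a fit and 0.05 as the threshold. P-values measure the spread between clones, some of which share a parent line; those of sister clones and of library kinds rest on single libraries, whose spread may be technical. The SE of an edgeR log2 change is the size of that change divided by the square root of its F statistic, not a separate estimate. CPM are plain, and log2 CPM for profiles used a prior count of 2 over genes of at least 5 CPM. Genes most like a member were the 3 with the highest Pearson r, passing over members, Riken, Gm and pseudogene symbols; of each serpin, protease and regulator list the 3 with the highest mean CPM are named, except 1 gene that is not reported here. Gene lengths and positions are those of GENCODE M21, which held 37693 of the identifiers. The steps were tested on simulated data. Alternatives were size factors, no filter, DESeq2 1.42.0, limma-voom (limma 3.58.1), single kinds of library, the library as replicate, sister clones, and leaving out each clone.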

Additional observations from a re-analysis of the deposited data

Results flagged for a closer look

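In the low clones' heart-free libraries, Serpinb6b was 225 CPM in yfp_6419c1, with the next clone at 120 CPM. The gap was 0.531 of the group's range, just over the cut-off of 0.526 for 8 clones. Chance flags about 1 in 20 groups, and 28 groups were examined. The heart-bearing library of the same clone, at 177 CPM, was also the highest of that kind. That of the low clone yfp_6422c1, which has no heart-free library, was close to it at 173 CPM. Over all libraries of the low clones yfp_6419c1 was not flagged.

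The high against low difference of Serpinb9 in the sisters yfp_6499c4 and yfp_6499c3 differed from that in yfp_6556c4 and yfp_6556c3 by 1.89 on the log2 scale, with every library of a line moving one way and the lines moving opposite ways. The edgeR test of that difference, added after the data were seen, gave an unadjusted p of 0.00128 and an adjusted p of 0.665. The same libraries flagged the gene, so this p is no separate support. How many of all genes show such a pattern was not counted.

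Serpinb6a did the same with a difference of 1.04 ± 0.35, and in that edgeR fit an unadjusted p of 0.0256 and an adjusted p of 0.791. The same limits apply to Serpinb6a. Its heart-free levels were 331 CPM in yfp_6499c4 and 221 CPM in its low sister yfp_6499c3, and 339 CPM in yfp_6556c4 and 418 CPM in its low sister yfp_6556c3.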

How the results depend on the processing

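Leaving out each clone in turn gave 0 to 16 called genes between high and low clones over all libraries, 0 to 37 in heart-free libraries (37 without yfp_2838c3), 0 to 99 between intermediate and low clones (99 without yfp_6422c5) and 0 between intermediate and high clones. DESeq2 called 123, 299 and 18 genes in the first 3 of these, and the library as replicate with its kind as covariate called 163 in the first. Intermediate against low clones, limma-voom, heart-free and heart-bearing libraries alone each called 0.

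No member was called between classes except Serpinb5 in heart-free libraries, by DESeq2 and without yfp_2838c3. Small uncalled log2 changes switched sign, and the cause was not tested. For high against low clones, limma-voom gave 0.018 for Serpinb6a (0.034 in heart-free libraries, and 0.087 there with 1 library per clone) and 0.0044 for Serpinb9. Heart-free libraries alone gave 0.043 for Serpinb9. Heart-bearing libraries alone gave -0.20 for Serpinb5, 0.015 for Serpinb6b and -0.45 for Serpinb8. Sister clones gave -0.059 for Serpinb5, 0.045 for Serpinb6a and -0.62 for Serpinb8. Leaving out 1 clone gave ranges of -0.12 to 0.054 for Serpinb6a, -0.22 to 0.013 for Serpinb6b and -0.22 to 0.018 for Serpinb9, and in heart-free libraries -0.10 to 0.14, -0.36 to 0.085 and -0.10 to 0.33.

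For intermediate against low clones, limma-voom gave 0.0034 for Serpinb6a and 0.24 for Serpinb8. Heart-free libraries alone gave -0.0021 for Serpinb1a, 0.13 for Serpinb6a and 0.35 for Serpinb8, and heart-bearing ones -0.032 for Serpinb6b and -0.072 for Serpinb9. Leaving out 1 clone gave -0.22 to 0.44 for Serpinb1a, -0.37 to 0.23 for Serpinb6a, -0.48 to 0.48 for Serpinb6b, -0.85 to 0.51 for Serpinb8, -0.50 to 0.49 for Serpinb9 and -0.050 to 0.41 for Serpinb9b. For intermediate against high clones, heart-bearing libraries alone gave 0.30 for Serpinb1a, -0.21 for Serpinb6a, -0.036 for Serpinb6b and 0.30 for Serpinb8. Leaving out 1 clone gave -0.30 to 0.30 for Serpinb6a, -0.33 to 0.63 for Serpinb6b, -1.21 to 0.13 for Serpinb8 and -0.36 to 0.62 for Serpinb9.

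For heart-bearing against heart-free libraries, Serpinb9 was -0.037 without the clone as a block and -0.18 with tumour number 1 against 2 in its place, where Serpinb6b was 0.14 and lost its call.

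By the rule that every pair's r exceed 0.1, the tumour numbers were not taken as pairs. Over 90 pairs of a high and a low library, the r of their deviations had a median of 0.56 with the same number (-0.79 to 0.94) and of -0.61 with different numbers (-0.81 to 0.94), and 21 of 27 libraries were most like one of their own number in the other class; the number largely coincides with the kind of library. With the tumour number as a replicate block 0 genes were called, and Serpinb8 and Serpinb9b had log2 changes of -0.0089 and -0.51.

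Depth limits Serpinb8 and Serpinb9b most, with 3 and 8 counts in their lowest libraries.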

Other observations

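Libraries of one clone could differ as much as clones. The 3 heart-free libraries of the high clone yfp_2838c3, with tumour numbers 2, 3 and 4, had 54.2, 42.1 and 99.0 CPM of Serpinb9 and 0.744, 2.09 and 8.61 CPM of Serpinb8. Their Serpinb5 levels were 18.8, 23.5 and 15.2 CPM. The leukocyte gene Ptprc was 6.03, 4.80 and 58.6 CPM in the same libraries, so the library with tumour number 4 was highest for Ptprc, Serpinb9 and Serpinb8 and lowest for Serpinb5. The 2 heart-free libraries of the low clone yfp_2699c4 were close, with 22.2 and 19.3 CPM of Serpinb9.

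The clones with no class had Serpinb5 at 14.6 CPM in the heart-free library of yfp_7062c3, and at 8.95 and 3.28 CPM in the heart-bearing libraries of yfp_6883c4 and yfp_6883c1. The value of 3.28 CPM was the lowest of the 39 libraries. The library of yfp_6883c1 also had the highest Serpinb8 of the heart-bearing libraries, at 6.47 CPM.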
